A study of Mus musculus with 16 samples.

Results

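The genes described here are Apob, Mttp, Apoe and Lpl, which act in the assembly of lipoprotein particles built on apolipoprotein B (apoB) and in their clearance from blood. They were chosen by name: a probe of the array counted when the platform's annotation gave it 1 of these symbols and no other. Each of the 4 genes had 1 probe, among 6734 genes named in this way, and all 4 had a value on all 16 arrays.

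The samples were livers of female APOE3Leiden (E3L) mice, a transgenic line on a C57BL6/JIco background that carries a human apolipoprotein E variant. The diterpene-fed mice received diet W, a Western-type diet with 15% fat and 0.25% cholesterol by weight, to which 2 diterpenes of coffee were added, cafestol at 0.04% and kahweol at 0.02%. The control mice received diet W alone. Both diets were given for 4 weeks from 10 weeks of age, to 8 and 7 mice, and all animals of both groups carried the transgene. Each of the 8 diterpene-fed livers was hybridised in Cy5 on 2 cDNA arrays, with RNA from livers of the control diet in the Cy3 channel. The comparison asks which liver transcripts respond to the diterpenes. No label names a single control mouse, so the log2 ratio of an array was tested against 0, and the spread among controls was not estimated separately. The diterpene-fed liver was in Cy5 on every array, so effects of dye and of diet on a ratio cannot be told apart. The labels put a human gene in every animal, and a cDNA probe for mouse Apoe may also bind its transcript.

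ApoB is the large structural protein of very-low-density and low-density lipoproteins, 1 molecule per particle. In hepatocytes it is loaded with triglyceride in the endoplasmic reticulum by the microsomal triglyceride transfer protein, whose large subunit is Mttp. In blood the particles lose triglyceride to lipoprotein lipase, Lpl, and the remnants are taken up by liver receptors that recognise apolipoprotein E, Apoe. Adult hepatocytes are known to make Apob, Mttp and most of the plasma's Apoe, while Lpl is made chiefly by fat, heart and skeletal muscle and by macrophages, and little of it by adult hepatocytes. The Leiden variant binds these receptors poorly, so remnants accumulate in this line.

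The bases just before the gene starts are shown because the members of the pair made together by hepatocytes, Apob and Mttp, lay on opposite sides of 0 in some of the mice. The sequences are from RefSeq (build GRCm38.p6), 250 bases each, 5′ to 3′ on the strand of the gene. Capitals mark the motifs found. The table of promoters used here held 1 start for Apob, 1 for Mttp and 3 for Apoe, of which the start listed first is shown, and Lpl was not among them. They lie at chr12:7977427-7977676 on the plus strand, chr3:138143419-138143668 on the minus strand and chr7:19699189-19699438 on the minus strand.
Apob: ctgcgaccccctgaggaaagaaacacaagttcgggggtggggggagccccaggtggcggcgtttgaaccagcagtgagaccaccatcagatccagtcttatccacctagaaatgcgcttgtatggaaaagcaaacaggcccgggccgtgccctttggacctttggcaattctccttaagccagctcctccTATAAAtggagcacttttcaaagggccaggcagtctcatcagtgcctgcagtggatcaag
Mttp: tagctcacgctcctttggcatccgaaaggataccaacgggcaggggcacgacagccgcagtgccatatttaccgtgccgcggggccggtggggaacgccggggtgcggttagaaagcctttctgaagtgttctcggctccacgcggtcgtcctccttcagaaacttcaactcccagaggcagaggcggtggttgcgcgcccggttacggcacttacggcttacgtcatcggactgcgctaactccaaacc
Apoe: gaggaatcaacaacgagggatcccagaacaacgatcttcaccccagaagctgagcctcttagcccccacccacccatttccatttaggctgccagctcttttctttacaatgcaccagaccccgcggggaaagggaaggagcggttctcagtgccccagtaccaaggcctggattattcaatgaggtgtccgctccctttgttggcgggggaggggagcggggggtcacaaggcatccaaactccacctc
Both strands of each were searched for TATAAA (the TATA box), GGGCGG (GC box), AGGTCA (the single site of nuclear receptors, from which their repeats are built), CAAAGGTCA (a direct repeat core), TGACNNNGC (antioxidant response element), TCACNCCAC (sterol response element) and CAAAGTCCA (HNF4 consensus). CAAAGGTCA contains AGGTCA. Of these only TATAAA was found, in Apob, from 60 to 55 bases before the start, and it is present in 13.0% of 27025 promoters of this length. AGGTCA is in 13.8% of them, GGGCGG in 32.9%, TGACNNNGC in 10.1%, TCACNCCAC in 1.04%, CAAAGGTCA in 0.407% and CAAAGTCCA in 0.381%. The GC content was 55.2% for Apob, 61.2% for Mttp and 57.2% for Apoe, against a median of 52.0%.

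The labels do not state which diet is on top of the deposited ratio, and signs are kept as the authors gave them. The glutathione S-transferase Gstm1 stood at -2.48 ± 0.23 and Cyp7a1, which catalyses the first and limiting step from cholesterol to bile acids, at 1.56 ± 0.38 (SD, n = 8 mice). In rodents these diterpenes are known to raise glutathione S-transferases and to lower Cyp7a1. If that held here, the ratio would be control over diterpene diet, and a negative value would mean a higher level in the diterpene-fed liver. No label settles this. Each array had between 8094 and 9314 values, each of a size equal to log2 of a fold with 1 decimal (10 times the fold lay within 0.01 of a whole number), also where the sign was negative. The smallest step from 0 was 0.138. The precision is limited by how many mice and arrays there were. The mouse identifiers form an SY and a TP series of 4 mice each, whose meaning no label states. The arrays carry the code c3z for SY and bl7 for TP mice, except that SY518Z has 1 array of each.

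The clearance genes Apoe and Lpl had clearly negative ratios, and the assembly genes Apob and Mttp stayed close to 0 on opposite sides of it. Apoe averaged -0.41 ± 0.12, Lpl -0.47 ± 0.24, Apob 0.12 ± 0.12 and Mttp -0.12 ± 0.16 (SD, n = 8 mice). Of the 4 genes, 3 passed the threshold (limma, Benjamini-Hochberg adjusted p under 0.05 over 8348 genes and unnamed probes), at a background of 43.4% of all features. Among all features, 18.0% passed as positive and 25.4% as negative. By size alone Lpl and Apoe lay far out, since only 1.5% and 2.16% of the features had a mean farther from 0. For Mttp and Apob these shares were 36.0% and 38.1%.

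**Figure D1:**
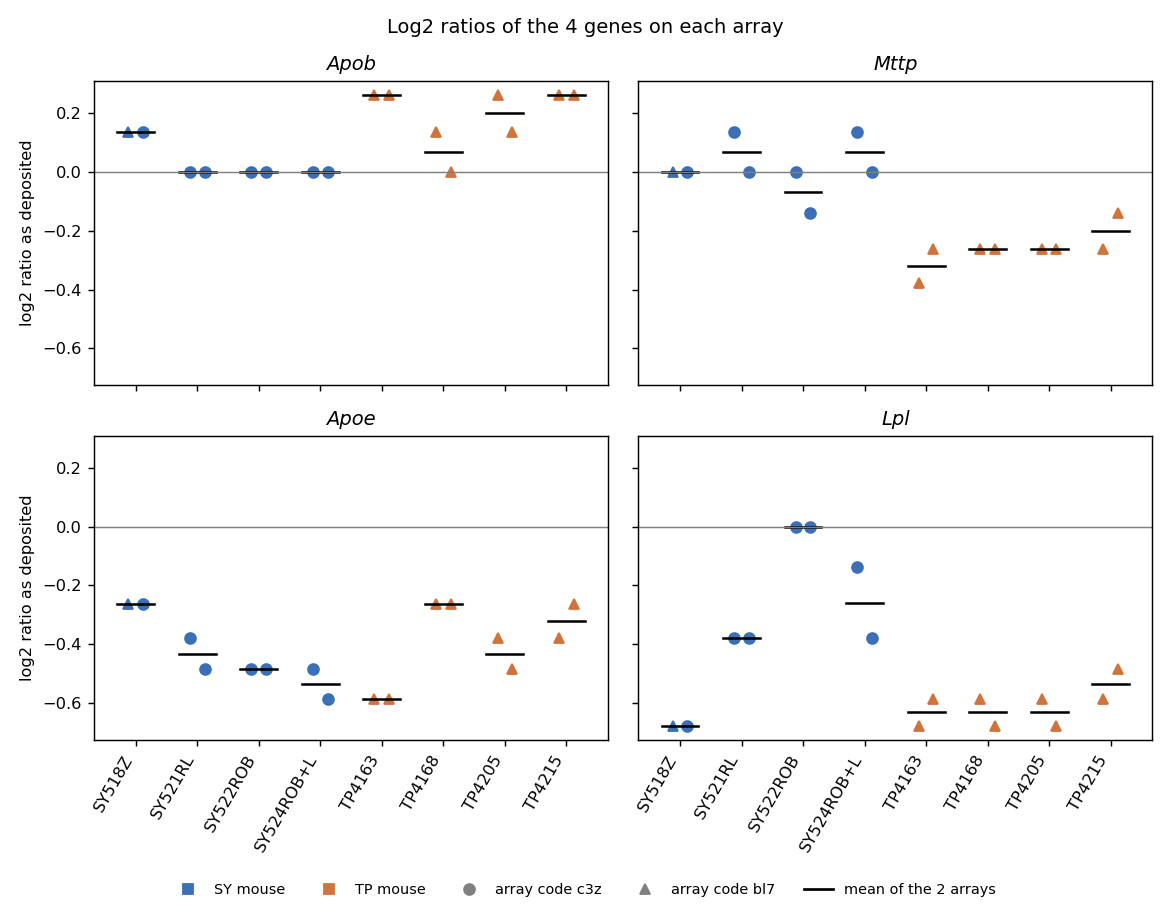
Log2 ratio of Apob, Mttp, Apoe and Lpl (y axis, as deposited) on each of the 2 arrays of every mouse (x axis). Colours separate SY and TP mice, circles are arrays of code c3z, triangles arrays of code bl7, and bars the mean of a mouse. Apoe is below 0 on all 16 arrays, and Mttp is below 0 on both arrays of every TP mouse.

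Apob, the structural protein of the particles (Entrez 238055), had mean log2 ratios per mouse of 0.14 in SY518Z and 0 in SY521RL, SY522ROB and SY524ROB+L. In the TP mice its ratios were 0.26 in TP4163, 0.07 in TP4168, 0.20 in TP4205 and 0.26 in TP4215. The 3 mice at exactly 0 were all of the SY series, and no mouse was negative. The mean of 0.12 corresponds to a 1.08-fold difference (95% interval 0.031 to 0.20 on the log2 scale; limma, adjusted p = 0.0302), and it is smaller than the rounding step of 0.138. Apob missed the threshold without SY518Z, TP4215, TP4205 or TP4163, with adjusted p from 0.0604 to 0.0854 (limma). It also missed it when the control RNA was treated as a mix of 7 mice that vary like the diterpene-fed ones (limma, adjusted p = 0.169). An exact sign-flip permutation test over the 8 mice gave p = 0.0625 (two-sided), the smallest this test can give with 3 mice at 0. The 2 arrays of a mouse read the same Apob ratio in 6 of 8 mice, and the SD between arrays of a mouse was 0.047.

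Mttp, which transfers lipid onto nascent apoB (Entrez 17777), had ratios of 0 in SY518Z, 0.07 in SY521RL, -0.07 in SY522ROB and 0.07 in SY524ROB+L. Its ratios were -0.32 in TP4163, -0.26 in TP4168, -0.26 in TP4205 and -0.20 in TP4215. The SY mice were scattered around 0 within 1 rounding step, and all TP mice lay below them. Over all mice the mean corresponds to a 1.09-fold difference (95% interval -0.23 to -0.016; limma, adjusted p = 0.0616), which did not pass. It passed without SY521RL (adjusted p = 0.0353) or without SY524ROB+L (limma, adjusted p = 0.0296). An exact sign-flip permutation test gave p = 0.109 (two-sided). The SD between arrays of a mouse was 0.073, against 0.16 between mice.

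Apoe, the ligand by which remnants reach liver receptors (Entrez 11816), had ratios of -0.26 in SY518Z, -0.43 in SY521RL, -0.49 in SY522ROB and -0.54 in SY524ROB+L. The TP mice had -0.585 in TP4163, -0.26 in TP4168, -0.43 in TP4205 and -0.32 in TP4215. Every mouse was negative, and each series held both weak and strong ratios. The mean corresponds to a 1.33-fold difference (95% interval -0.50 to -0.33; limma, adjusted p = 1.64e-05). A ratio of 1 sign in every measured mouse was found for 18.4% of all features. The exact sign-flip permutation p was 0.00781, the smallest that 8 mice allow. How much of the signal came from the human transgene's transcript was not tested.

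Lpl, the lipase that removes triglyceride from the particles (Entrez 16956), had ratios of -0.68 in SY518Z, -0.38 in SY521RL, 0 in SY522ROB and -0.26 in SY524ROB+L. In TP mice it had -0.63 in TP4163, -0.63 in TP4168, -0.63 in TP4205 and -0.54 in TP4215. The TP mice were nearly alike, whereas the SY mice covered the whole range of the gene, from its highest to its lowest value. The mean corresponds to a 1.38-fold difference (95% interval -0.62 to -0.32; limma, adjusted p = 0.000244). The exact sign-flip permutation p was 0.0156 (two-sided), the smallest this test can give with 1 mouse at 0. In SY522ROB both arrays read 0, and in SY518Z both read -0.68, so the spread among SY mice was not a spread between the arrays of a mouse. The largest difference between 2 arrays of a mouse was 0.24, in SY524ROB+L.

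**Figure D2:**
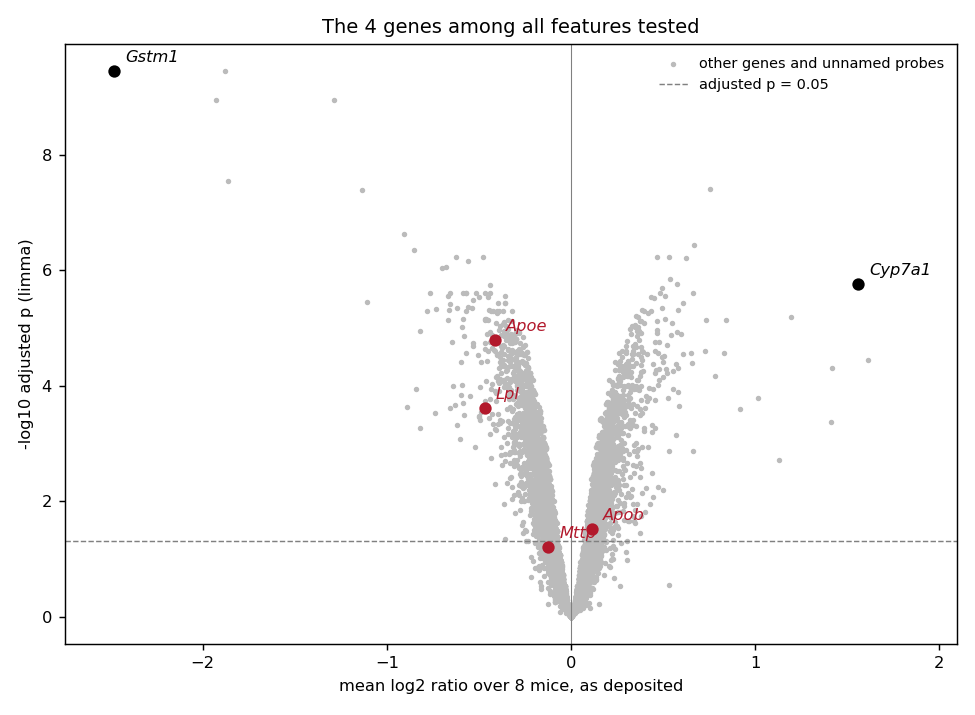
Mean log2 ratio over 8 mice (x axis, as deposited) against -log10 of the limma adjusted p (y axis) for the 8348 genes and unnamed probes tested. Red points are the 4 genes, black points Gstm1 and Cyp7a1, and the dashed line is an adjusted p of 0.05. Apoe and Lpl lie on the negative side above the line, Apob just above it on the positive side, and Mttp just below it.

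The response of Mttp differed between the SY and TP series. Mttp averaged 0.017 ± 0.066 in SY mice and -0.26 ± 0.049 in TP mice (SD, n = 4 each), a difference of 0.28 (SY minus TP, 95% interval 0.16 to 0.40; limma, adjusted p = 0.0181). The series did not overlap, which was so for 10.3% of all features, and 5.70% of all features passed this test. The exact permutation p for 4 against 4 mice was 0.0286, the smallest this design allows. Without SY521RL, SY524ROB+L, TP4205 or SY522ROB, or on the first or the second arrays alone, the difference kept its sign and missed the threshold, with adjusted p from 0.0536 to 0.0887 (limma). Since array code and identifier series nearly coincide, they cannot be told apart across the mice. Within SY518Z, the mouse with an array of each code, Mttp read 0 on both, Apob 0.14 on both, Apoe -0.26 on both and Lpl -0.68 on both. Over all probes its arrays were the least alike of any mouse, with equal values for 34.2% of probes, against 46.2% to 60.1% in the other mice.

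Apob and Lpl passed the test of a difference between the series in none of the fits that held SY518Z, and passed it when this mouse was left out. Apob averaged 0.034 ± 0.069 in SY mice and 0.20 ± 0.092 in TP mice, a difference of -0.16 (95% interval -0.30 to -0.030; limma, adjusted p = 0.127). The exact permutation p was 0.0571 for Apob. Lpl averaged -0.33 ± 0.28 in SY mice and -0.61 ± 0.048 in TP mice, a difference of 0.28 (95% interval 0.037 to 0.52; limma, adjusted p = 0.147). Its exact permutation p was 0.143. Without SY518Z, whose Apob and Lpl values fell among those of the TP mice or beyond them, the differences were -0.20 for Apob (limma, adjusted p = 0.0494) and 0.40 for Lpl (adjusted p = 0.0147). Apoe averaged -0.43 ± 0.12 in SY mice and -0.40 ± 0.14 in TP mice, and the interval of its difference, -0.20 to 0.15, included 0 (limma, adjusted p = 0.855).

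Tested against 0 within each series, Apoe passed in SY mice (limma, adjusted p = 0.00962) and in TP mice (adjusted p = 0.0112). Lpl did not pass in SY mice (adjusted p = 0.0931) and passed in TP mice (limma, adjusted p = 0.00487). Apob did not pass in SY mice (adjusted p = 0.497) and passed in TP mice (limma, adjusted p = 0.0236). Mttp passed in TP mice alone (limma, adjusted p = 0.00665), against adjusted p = 0.735 in SY mice.

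**Figure D3:**
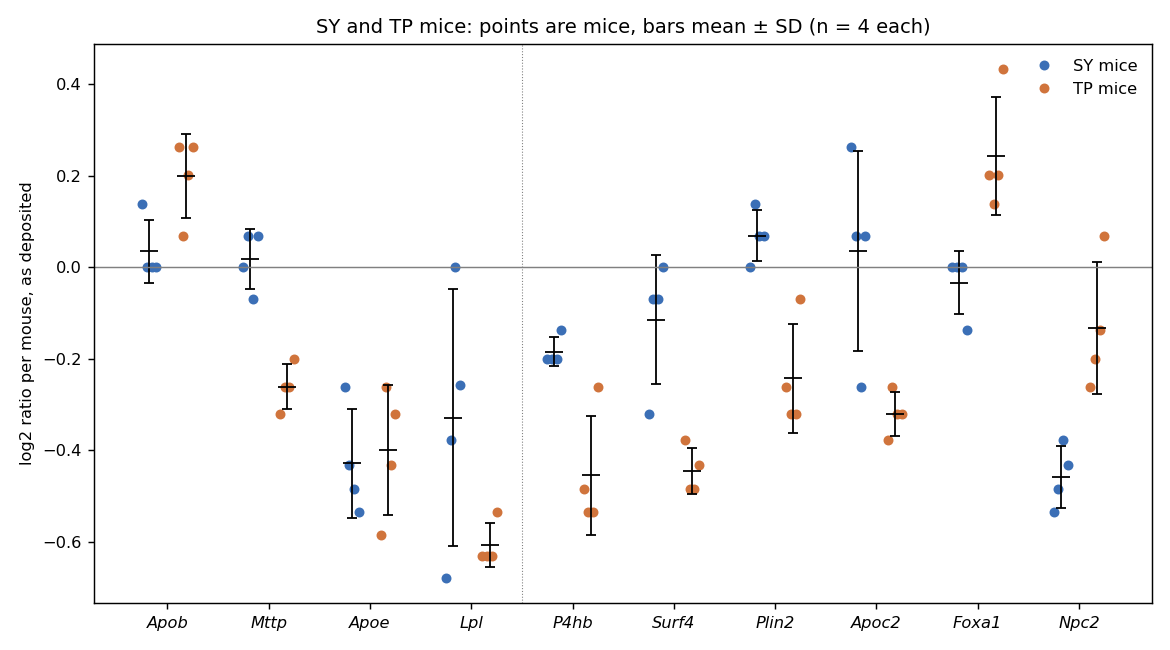
Log2 ratio per mouse (y axis, as deposited) in SY and TP mice for the 4 genes and, right of the dotted line, for the 6 pathway genes that differed between the series at an adjusted p under 0.05. Points are mice, and bars are mean ± SD (n = 4 each). The values of the series do not overlap for Mttp, as for 10.3% of all features, while those of Apoe do. They also do not overlap for P4hb, Surf4, Plin2, Foxa1 and Npc2, which were picked for a difference over these same mice.

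Around these genes, a list of 86 genes of particle assembly, lipase control and remnant uptake was examined, of which 48 were tested. Of these, 5 were positive, 19 negative and 24 not called, with a median log2 ratio of -0.074, against -0.017 over all features (of which 18.0% were positive and 25.4% negative). Apoc3 and the hepatic lipase gene Lipc were not analysed here.

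On the assembly side, 11 of 23 tested genes were negative and 3 positive, beside 25.4% and 18.0% of all features. The chaperones Hspa5 and Calr stood at -0.66 ± 0.35 and -0.44 ± 0.14, and the ATPase Vcp, which extracts proteins for degradation, at -0.33 ± 0.13 (SD, n = 8 mice). P4hb, the protein disulfide isomerase that is the small subunit of the triglyceride transfer protein, stood at -0.32 ± 0.17 and its relative Pdia3 at -0.31 ± 0.20. The cargo receptors Surf4 and Lman1, which carry proteins out of the endoplasmic reticulum, were at -0.28 ± 0.20 and -0.24 ± 0.17. Smaller negative ratios were those of Apobec1 (-0.14 ± 0.079), which edits the Apob transcript, Tm6sf2 (-0.12 ± 0.092), which acts in particle lipidation, the coat protein gene Sec23a (-0.11 ± 0.11) and the liver factor Foxa2 (-0.085 ± 0.060). Positive were the carboxylesterase Ces3b (0.54 ± 0.0975), the sorting receptor Sort1 (0.24 ± 0.095), which binds apoB, and Hnf4a (0.10 ± 0.080), a liver factor that acts on Apob and Mttp. The largest adjusted p of these 14 genes was 0.0339 (limma). Sec23a lost its call in 15 of 24 alternative settings and Foxa2 in 14 of 25. The ratios of the 9 genes that were not called ran from -0.12 to 0.17, among them, named after their values were seen, the chaperones Hsp90b1 (-0.12 ± 0.30; limma, adjusted p = 0.252) and calnexin, Canx, which read 0 in all 8 mice.

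The subunits of the triglyceride transfer protein both had lower ratios in TP mice. P4hb had -0.20 in SY518Z, SY521RL and SY522ROB and -0.14 in SY524ROB+L. In TP mice it had -0.49 in TP4163, -0.54 in TP4168, -0.54 in TP4205 and -0.26 in TP4215. The difference was 0.27 (SY minus TP; limma, adjusted p = 0.0394). Unlike Mttp, P4hb was negative in 8 of 8 mice, with a mean of -0.18 in SY mice. Of the 48 pathway genes, 6 (12.5%) differed between the series, at a background of 5.70%. Besides P4hb they were Surf4 (mean -0.11 in SY and -0.45 in TP mice), the lipid droplet protein Plin2 (0.069 and -0.24), Apoc2, the cofactor of Lpl (0.034 and -0.32), the liver factor Foxa1 (-0.034 and 0.24) and Npc2, the lysosomal cholesterol carrier (-0.46 and -0.13). Plin2, Apoc2 and Foxa1 were not called against 0 and are named after their values were seen.

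**Figure D4:**
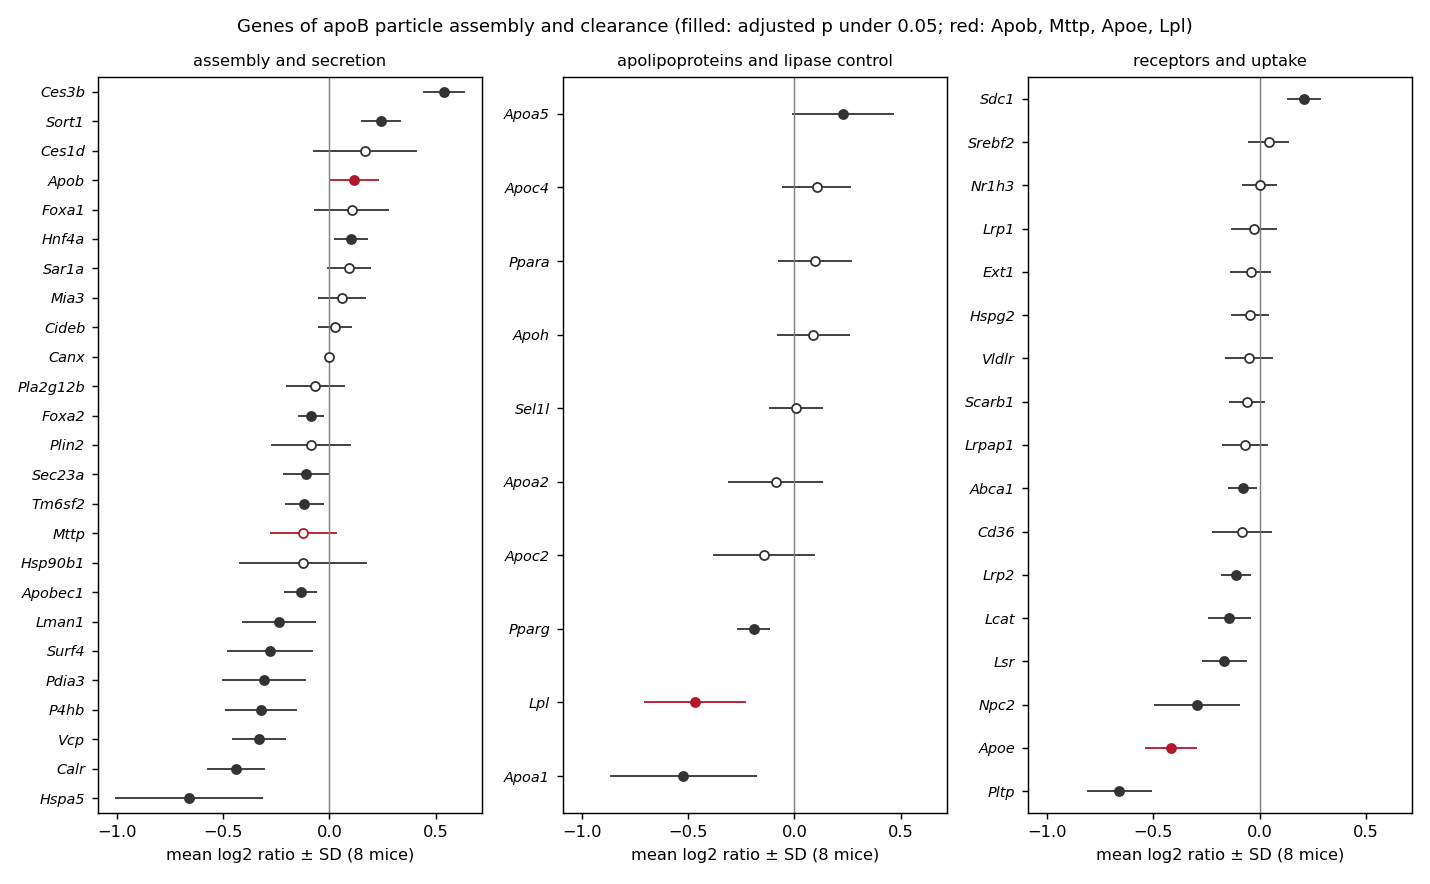
Mean log2 ratio ± SD over 8 mice (x axis, as deposited) of the 48 pathway genes and, in red, the 4 genes, in panels by role. Filled points passed an adjusted p of 0.05. Most filled points lie left of 0, with Pltp and Hspa5 at -0.66 farthest out, and Ces3b at 0.54 farthest right.

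Among exchangeable apolipoproteins and genes of lipase control, 2 of 9 were negative and 1 positive, shares no higher than the 25.4% and 18.0% of all features. Apoa1, the main protein of high-density lipoprotein, stood at -0.52 ± 0.35, and Pparg, a nuclear receptor that acts on Lpl in fat cells, at -0.19 ± 0.078. Apoa5, which raises the action of Lpl in plasma, was positive at 0.23 ± 0.24. Their largest adjusted p was 0.0183 (limma). The other 6 ran from -0.14 to 0.10.

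Of 16 tested genes of remnant receptors and lipid exchange, 6 were negative and 1 positive, beside 25.4% and 18.0% of all features. The phospholipid transfer protein Pltp, which acts on high-density lipoprotein and exchanges lipid with apoB particles, was at -0.66 ± 0.15, farther from 0 than Apoe. Npc2 stood at -0.30 ± 0.20, the lipoprotein receptor Lsr at -0.17 ± 0.10, the cholesterol-esterifying enzyme Lcat at -0.14 ± 0.10, the receptor Lrp2 at -0.11 ± 0.071 and the sterol exporter Abca1 at -0.080 ± 0.069. The heparan sulfate carrier Sdc1, a remnant receptor of mouse liver, was positive at 0.21 ± 0.080. The largest adjusted p among these genes was 0.0485 (limma), for Abca1, which lost its call in 16 of 24 alternative settings. The Apoe receptors Lrp1 (-0.025 ± 0.11, adjusted p = 0.615) and Vldlr (-0.049 ± 0.11, adjusted p = 0.325) were not called (limma).

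Lpl and Apoe are also made by macrophages, and whole liver was measured, so a difference in how many cells of a type there were and a difference in RNA per cell cannot be told apart. The files hold ratios and no levels, so the labelled tissue could not be checked by the level of liver markers. Of 24 listed markers of Kupffer cells and macrophages 18 were tested, of which 11 were negative, 2 positive and 5 not called, with a median of -0.17. Over all features 25.4% were negative and 18.0% positive, with a median of -0.017. The negative ones were the lysosomal protein Cd68 (-0.65), the lectin Lgals3 (-0.58), Ctss (-0.38), C1qc (-0.28), Fcer1g (-0.26), C1qa (-0.23), C1qb (-0.23), Tyrobp (-0.19), Cd5l (-0.17), Lyz2 (-0.16) and Fcgr3 (-0.11), of which Fcgr3 lost its call in 14 of 25 alternative settings and Lyz2 in 12. Spi1 (0.28, over 7 mice) and the scavenger receptor Cd163 (0.17) were positive. Among the 5 not called, named after their values were seen, were Clec4f at -0.050 ± 0.11, Adgre1 at -0.026 ± 0.21 and Marco at -0.16 ± 0.48. Adgre1 averaged -0.18 in SY and 0.13 in TP mice (SY minus TP; limma, adjusted p = 0.0483). Marco averaged -0.50 and 0.17 (limma, adjusted p = 0.0512). The median of the 18 markers ran from -0.23 to -0.14 in SY mice and from -0.38 to 0.10 in TP mice. In SY522ROB it was -0.17 where Lpl was 0, and in TP4215 it was 0.10 where Lpl was -0.54 and Apoe -0.32. That median was lowest in TP4163, at -0.38, where Apoe was also lowest, at -0.585, and Lpl was -0.63. The part of macrophages in the Lpl and Apoe ratios was not tested.

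Of other sources of Lpl, 4 of 8 adipocyte markers were tested. Pck1, also a gluconeogenic enzyme of hepatocytes, was positive (0.47), and Adipoq (-0.025), Fabp4 (-0.045) and Cidec (0.059) were not called. The median of the list ran from -0.10 to 0.20 in SY mice and from -0.034 to 0.13 in TP mice. Of 6 muscle markers tested out of 7, 5 were negative, beside 25.4% of all features. They were Acta1 (-0.57), Ckm (-0.34), Myh1 (-0.24), Mb (-0.16) and Tnnt3 (-0.093), while Tnnc2 (0.026) was not called. Tnnt3 lost its call in 14 of 25 alternative settings. The muscle median ran from -0.20 to -0.10 in SY mice and from -0.23 to -0.20 in TP mice, and its part in the Lpl ratio was not tested. Whether the signal of these muscle genes exceeded background in liver was not analysed here.

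Of 11 stellate cell and fibroblast markers tested, 6 were negative, namely Acta2 (-0.49), Col1a1 (-0.31), Lum (-0.27), Col1a2 (-0.20), Pdgfrb (-0.20) and Lrat (-0.12), and 0 positive, beside 25.4% negative and 18.0% positive among all features. Lrat lost its call in 15 of 25 alternative settings and Lum in 10. The median of this list ran from -0.32 to 0 in SY mice and from -0.26 to -0.069 in TP mice. It was lowest in SY518Z, where Lpl was lowest, and 0 in SY522ROB, where Lpl was 0, but also 0 in SY524ROB+L, where Lpl was -0.26. Over the TP mice Lpl stayed between -0.63 and -0.54. The part of stellate cells in the Lpl ratio was not tested. Of 6 endothelial markers, Eng (-0.29) and Cdh5 (-0.17) were negative. Of 10 hepatocyte markers, Hpd (0.73), Asgr1 (0.41), Fgb (0.23) and Hnf4a (0.10) were positive and Trf (-0.41) negative, against the same shares of all features. The hepatocyte median, -0.034 to 0.32 in SY mice and 0.034 to 0.26 in TP mice, was highest in SY518Z.

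**Figure D5:**
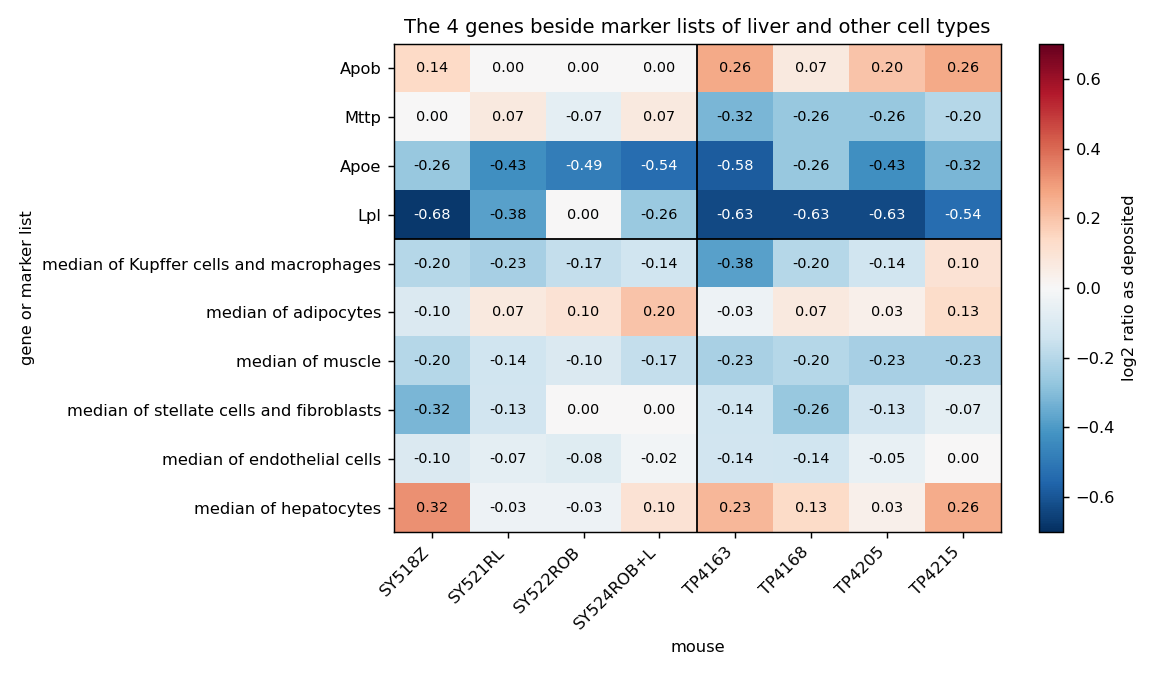
Log2 ratio as deposited (colour and printed value) of the 4 genes and of the median of each marker list (rows) in every mouse (columns, SY left and TP right of the line). Lpl is 0 in SY522ROB, where the macrophage median is -0.17 and the stellate median 0. The macrophage median is lowest in TP4163 (-0.38), where Apoe is also lowest.

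The genes whose pattern over the 8 mice was most like that of each gene were looked up among named genes with an SD of at least 0.15. Their number was 1185 for Apob and Apoe and 1184 for Mttp and Lpl. All points are ratios to control-diet RNA, and no label states whether this was a single pool. Within a series the points nearly always share the array code, so the correlations are descriptions. Apob was most like Atp5md (Pearson r = 0.95), Irf2bpl (0.95) and the hexokinase Hk1 (0.94). Mttp was most like Denr (r = 0.98), the glutathione S-transferase Gstm2 (0.97) and Pafah1b3 (0.92). When the mean of each series was first removed, these values were 0.80 for Denr, 0.74 for Gstm2 and 0.63 for Pafah1b3, and for Apob they were 0.89, 0.87 and 0.91.

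Apoe was most like the succinate dehydrogenase subunit Sdhb (r = 0.93), Cyp7a1 (0.90) and Tmem256 (0.89), with 0.95, 0.90 and 0.91 after removal of the series means. Cyp7a1 and Apoe lay on opposite sides of 0, so the likeness means that mice with the more positive Cyp7a1 ratio had the Apoe ratio closer to 0. Lpl was most like Gm11223 (r = 0.96), the annexin Anxa2 (0.94) and Tes (0.93), with 0.94, 0.90 and 0.89 after removal. Of the genes compared, 1% had r of at least 0.90 with Apob, 0.89 with Mttp, 0.82 with Apoe and 0.91 with Lpl.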

How the data were processed

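Liver RNA of 8 diterpene-fed mice was measured on 16 cDNA arrays against control-diet RNA. Values are log2 ratios of the array's channels, as deposited by the authors. Dyes are known per the labels. How ratios were normalized, corrected for background or left blank (282 to 1502 probes per array), and their direction, is not given in the sources used. There were 0 arrays with swapped dyes. Every array had a median of 0, and values were used as deposited. Probes were named by the platform annotation through a RefSeq table (GRCm38.p6, names only): 7407 had 1 symbol, 437 several and 1752 none. Probes of a gene were averaged, then the 2 arrays of a mouse. Of 8923 features, 8348 with values in at least 6 mice were tested against 0 with limma 3.58.1 in R 4.3.3 (lmFit, eBayes, two-sided p adjusted by Benjamini-Hochberg, threshold 0.05), and SY against TP mice with a 2-group model. The p-values measure the spread of the ratios over the diterpene-fed mice. No label states whether the control RNA varied between arrays, and a spread among controls was not estimated separately. Fits were tested on simulated independent mice without effects of dye or control RNA, so that test cannot address either. Exact permutation tests flipped signs of mice or permuted series labels. Figures were drawn with matplotlib 3.10.9.

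The members, lists and tests were chosen with earlier results of these data known. Named genes were the 4 members, called pathway genes and markers, Lrp1, Gstm1, Cyp7a1, and the 3 most correlated genes of each member. Alternatives covered centring, scaling, quantile normalization, single probes, blank filters, moderation, each mouse left out, single arrays, blocks, series, array codes, a minimum fold and the spread of control mice.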

Additional observations from a re-analysis of the deposited data

Results flagged for a closer look

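Among the 73 genes named by rule, 81 groups of mice were checked for 1 mouse far from the others, and 4 such gaps were found. Chance alone gives about 5% of groups, a share for values that are not rounded as these are. Within the SY series the Apob ratio of SY518Z, 0.1375, stood apart from the other SY mice, which were all at 0. Both arrays of SY518Z read 0.1375, the smallest step from 0 that the rounding allows on an array. A mean of 2 arrays can lie closer to 0, as that of TP4168 did (0.069). Within the TP series the Lpl ratio of TP4215, -0.535, stood apart from 3 mice at the same value of -0.63. Its arrays read -0.585 and -0.485, and those of each of the 3 mice -0.585 and -0.68. These readings are adjacent values of a fold with 1 decimal. Over all 8 mice the asialoglycoprotein receptor gene Asgr1 was far higher in SY518Z (0.848) than in the others (0.26 to 0.49). The complement gene C1qc was positive in TP4215 (0.1375) and between -0.38 and -0.20 in the others.

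The ratios of 8 of these 73 genes differed between the identifier series in the 2-group limma model at an adjusted p under 0.05. Among all features, 5.70% did. SY minus TP was 0.28 for Mttp, 0.27 for P4hb, 0.33 for Surf4 and -0.32 for Npc2. It was 0.33 for Denr, 0.48 for Gstm2, 0.35 for Pafah1b3 and -0.33 for Irf2bpl, which had been picked for their likeness to Mttp or Apob over the same mice. The series nearly coincide with the array code, from which they cannot be told apart.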

How the results depend on the processing

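The ratio of Apoe kept its sign and its call in 24 of 25 alternatives and that of Lpl in 22 of 25. Leaving out each mouse gave Apob ratios of 0.096 to 0.13 (adjusted p 0.0221 to 0.0854) and Mttp ratios of -0.15 to -0.094 (0.0296 to 0.161). On second arrays Apob was 0.10 and missed the threshold (adjusted p = 0.0747), while Mttp at -0.13 passed (0.0270). With arrays blocked by mouse Mttp, at -0.12, passed (0.0296). In SY mice alone and on c3z arrays alone Apob was 0.034, Mttp turned to 0.017, Lpl was -0.33 (adjusted p 0.0931 and 0.112), and Lrp1 turned to 0.0015 and 0.017. In TP mice Mttp was -0.26 and on bl7 arrays -0.21, and both passed. With the series as a random block Apob, at 0.12, did not pass (0.0835). Against a minimum of 1.2-fold Apob (0.12), Apoe (-0.41, adjusted p = 0.0820) and Lpl (-0.47, 0.248) did not pass. With the spread of 7 control mice Apob (0.12) did not pass, while Apoe (0.000848) and Lpl (0.00722) did.

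Of all features, 3622 were called, against 2159 in SY mice, 2191 on c3z arrays, 123 against 1.2-fold and 1805 with the control spread. Called pathway genes numbered 24, against 14, 12, 2 and 15. For SY minus TP, leaving out a mouse gave -0.21 to -0.14 for Apob, 0.26 to 0.31 for Mttp, 0.17 to 0.40 for Lpl and -0.090 to 0.017 for Apoe. Apoe turned positive without TP4168 (0.017) or SY524ROB+L (0.0067). Mttp was 0.36 on first and 0.20 on second arrays and missed the threshold on each. Between array codes, without SY518Z, Apob (-0.20) and Lpl (0.40) passed. The cause of these changes was not tested. For the other 69 named genes, 1447 of 1720 values kept direction and call, 265 lost the call and 3 gained it, with the direction kept. Sdhb ranged from -0.00086 (without SY518Z) to 0.065 with each mouse left out, and Irf2bpl turned to 0.056 in TP mice and 0.045 on bl7 arrays. No paired analysis was possible because the labels give 1 group of mice against an unnamed control. Rounding to 1 decimal limits ratios near 0, and signal over background was not analysed here.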
